A study of Gossypium hirsutum with 6 samples.

Results

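The genes described here are 167 protein-coding genes of upland cotton (Gossypium hirsutum) whose annotation names a part in moving, making, storing or first answering auxin. They were chosen by the text of their description, which had to name an auxin transporter or efflux carrier, a PIN-LIKES protein, an auxin-induced, auxin-binding or auxin-repressed protein, a SAUR, or an enzyme acting on indole-3-acetic acid or indole-3-pyruvate. Genes described as auxin response factors or as auxin-responsive IAA proteins were left out. Of 362 genes with such a description, 195 had fewer than 60 counts over the 6 samples, and 92 of these had no count at all. The 167 that remained are a small share of the 44055 protein-coding genes with at least 60 counts. They comprise 16 AUX1/LAX-type influx carriers, 10 PIN efflux carriers, 13 PIN-LIKES proteins, 8 YUCCA monooxygenases, 34 GH3 amido synthetases, 55 SAUR-type genes, 5 auxin-binding proteins, 4 auxin-repressed proteins and 22 others named after auxin induction. The rule itself uses no measured difference, although it was written with earlier results of these data known.

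Auxin is the plant hormone indole-3-acetic acid. Plants make it from tryptophan through indole-3-pyruvate, which the YUCCA flavin monooxygenases convert to the hormone. AUX1/LAX permeases bring auxin into cells, PIN carriers let it out at the side of the cell where they sit, and PIN-LIKES proteins hold it at the endoplasmic reticulum. GH3 enzymes join auxin to amino acids and so lower the free hormone. SAUR genes (small auxin up RNA) are among the first to respond to it, and several SAUR proteins of Arabidopsis promote cell expansion through the plasma membrane proton pump. In cotton, auxin in the ovule epidermis is known for its part in the start of fiber cells, and it is a usual ingredient of ovule culture media.

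Wild-type ovules of cv. ZM24 were cultured for 2 d with water (CK) or with 10 μmol/L putrescine (Put), a diamine, and RNA was sequenced from 3 samples of each. Whether the medium held auxin is not given in the sources used here. The study divided its collected ovules at random into replicates, so p-values here measure the spread between these samples, which may be technical. The libraries held between 16974557 and 19463059 counts. Across the 51764 genes tested, 9509 were higher and 9426 lower with Put (adjusted p under 0.05, edgeR), or 18.4% and 18.2%, at a common biological coefficient of variation of 4.41%.

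The tissue label was checked against marker genes. The 4 genes described as AGL11, an ovule identity factor, summed to between 362 and 365 FPKM in CK and between 396 and 405 FPKM in Put. Of these, 3 were higher with Put and 0 lower. The 5 genes described as BEL1 homologs, which act in integuments, summed to between 25.3 and 28.4 FPKM in CK and between 18.4 and 19.2 FPKM in Put. Of the BEL1 homologs, 3 were tested, and all of these were lower. Both genes described as YABBY 4 were at 0 in all samples, and no protein-coding gene was described as AINTEGUMENTA. The 6 fiber protein E6 genes summed to between 1466 and 1530 FPKM in CK and between 7336 and 7509 FPKM in Put, and 4 of them were higher and 2 lower. Of markers of other tissues, the 49 genes described as chlorophyll a-b binding proteins, 8 of them at 0 in all samples, summed to between 140.1 and 144 FPKM in CK and between 112 and 114 FPKM in Put, with 1 higher and 12 lower of 32 tested. The 8 genes of the small subunit of Rubisco summed to between 50.7 and 52.7 FPKM in CK and between 45 and 48.1 FPKM in Put, with 1 of 5 tested lower. The 16 genes described as pollen-specific, 7 of them at 0, summed to between 24.3 and 25.1 FPKM in CK and between 27.3 and 30.6 FPKM in Put, with 1 higher and 1 lower of 6 tested. The part of these shifts in the results below was not tested. In whole ovules, fewer cells of a type and less RNA per cell cannot be told apart.

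Of the 167 auxin genes, 164 passed the filter on low counts and were tested. With Put, 34 (20.7%) were higher and 46 (28%) lower, against a background of 18.4% higher and 18.2% lower over all tested genes, or 36.6% in either direction. Of the 46 lower genes, 19 were transport genes. The median log2 fold change of the tested members was 0.00, as over all tested genes, while their quartiles of -0.54 and 0.42 were wider than the -0.21 and 0.23 of all genes. Among called genes the median size of the log2 fold change was 0.80 for the members and 0.43 overall. The tested members were also less abundant, with a median of 2.49 FPKM against 4.72 FPKM over all tested genes. The part of abundance in these wider values was not tested. At a log2 fold change of at least 1 in size, 18 members were higher and 12 lower, where 3.8% and 1.92% of all tested genes passed. Of the 80 called members, 59 kept their call in every fit that left out a single sample, and no called member changed sign in any of them.

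**Figure D1:**
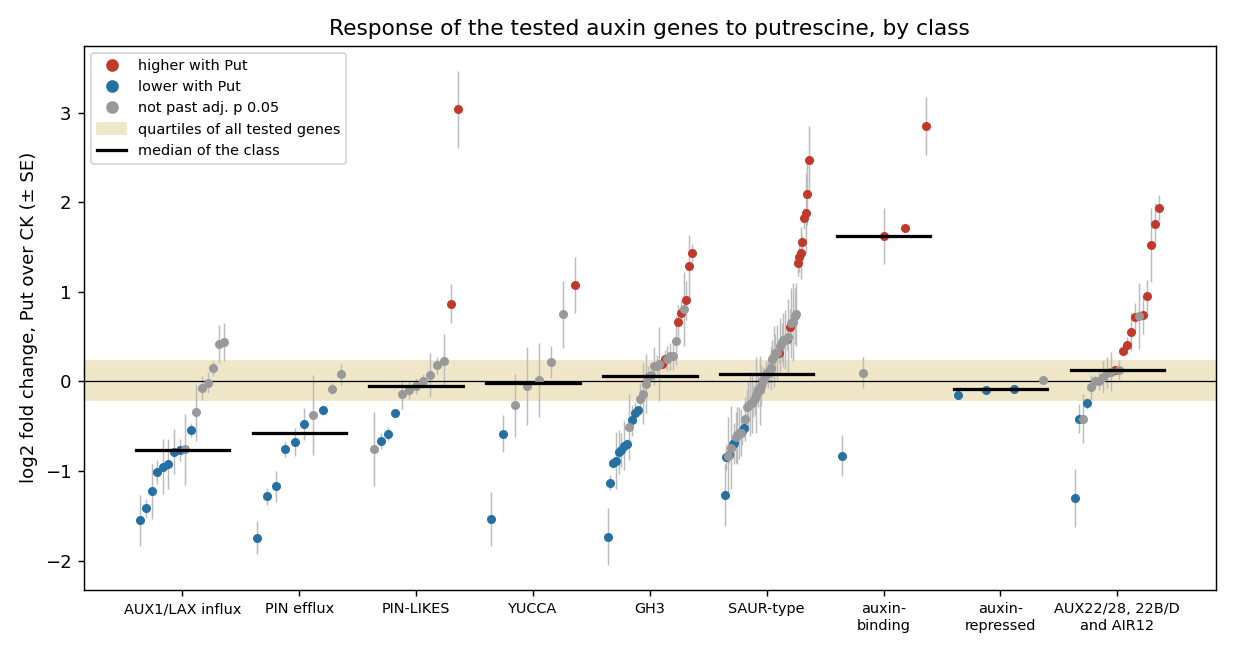
Log2 fold change (Put over CK, ± SE) of each tested auxin gene, grouped by class and sorted within it, from 3 samples per condition. Red points are higher, blue points lower and grey points not past an adjusted p of 0.05 (edgeR), black bars are class medians and the shaded band spans the quartiles of all 51764 tested genes. The 16 influx and 10 PIN genes lie mostly below the band, with medians of -0.76 and -0.57, whereas SAUR-type and GH3 genes spread to both sides.

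Transport genes were more often lower than higher. Of 39 tested, 19 (48.7%) were lower and 2 (5.13%) higher with Put, beside 18.2% and 18.4% of all tested genes, with a median log2 fold change of -0.37. Leaving out a sample gave 16 to 18 lower and 2 or 3 higher. Their median length was 2129 bp, against 1781 bp over all tested genes, and longer genes tended to lower values in these data, as described with the SAUR-type genes. With offsets that follow gene length, the median was -0.41.

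The influx carriers, amino acid permease-like proteins that take auxin up with protons, were lower in 9 of 16 cases (56.25%) and higher in 0. Among all tested genes, 18.2% were lower and 18.4% higher. Their median log2 fold change was -0.76, and they summed to between 46.8 and 49.2 FPKM per CK sample and between 32.3 and 33.6 FPKM per Put sample. FPKM summed over all genes were 594431 to 597596 in CK and 633286 to 639419 in Put. Both abundant members were among the lower ones. LOC107899523 on D04, described as auxin transporter-like protein 2, had 26.3, 26.5 and 27.3 CPM in CK and 16.3, 17.1 and 21.7 CPM in Put. Its groups did not overlap (log2 fold change -0.54 ± 0.08 SE, adjusted p = 1.78e-07, edgeR). LOC107962491 lies on chromosome A06 from 6837038 to 6839404 on the plus strand and is the only member described as auxin transporter-like protein 3. It had 16.4, 16.6 and 20 CPM in CK and 6.58, 7.01 and 6.26 CPM in Put. Every Put sample was far below every CK sample (log2 fold change -1.42 ± 0.11 SE, adjusted p = 2.75e-16, edgeR).

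Less abundant influx genes reached similar sizes. LOC107891563 on D01 had 2.28, 2.29 and 2.7 CPM in CK and 0.877, 0.772 and 0.819 CPM in Put, again without overlap (log2 fold change -1.55 ± 0.29 SE, adjusted p = 1.35e-05, edgeR). LOC107916752 on A01, described as auxin transporter-like protein 5, had 2.12, 2.14 and 1.56 CPM in CK and 0.713, 0.772 and 0.995 CPM in Put (log2 fold change -1.23 ± 0.31 SE, adjusted p = 0.00108, edgeR). The 7 influx genes that did not pass ranged from -0.76 to 0.44 on the log2 scale. The highest of these, LOC121207860 on A10, had 2.54, 2.24 and 2.28 CPM in CK and 4.0, 3.15 and 2.4 CPM in Put, and only 1 CK sample exceeded the lowest Put sample. This gene passed without Put replicate 3, which made the count 1 higher and 8 lower. Of the lower influx genes, 3 depended on single samples. LOC107934930 on D10 had 2.49, 3.36 and 1.61 CPM in CK and 0.987, 1.78 and 1.17 CPM in Put with overlapping groups, and lost its call without CK replicate 2 or Put replicate 1 (adjusted p = 0.12 in the weaker fit, edgeR). LOC107889766 lost it without CK replicate 2 or Put replicate 3 and LOC107920883 without CK replicate 3 or Put replicate 2, with adjusted p of up to 0.0669 and 0.0913 (edgeR).

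The PIN efflux carriers were lower in 7 of 10 cases (70%) and higher in 0, beside 18.2% and 18.4% of all tested genes. Their median log2 fold change was -0.57, and 6 or 7 were lower when a sample was left out. They summed to between 64 and 65.2 FPKM in CK and between 44 and 46.8 FPKM in Put. The PIN6-type gene fell strongly. LOC107952017, on chromosome A02 from 11935268 to 11939533 on the minus strand, had 23.9, 21.9 and 26.3 CPM in CK and 9.37, 9.03 and 11.3 CPM in Put. The Put samples were far below the CK samples (log2 fold change -1.28 ± 0.09 SE, adjusted p = 5.01e-17, edgeR). In Arabidopsis, PIN6 lies partly at the endoplasmic reticulum.

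The most abundant PIN genes moved little. LOC107934295, described as PIN component 3 on A01, had 39.8, 35.7 and 37.5 CPM in CK and 33.3, 36.8 and 36.9 CPM in Put. The groups overlapped, and the difference did not pass (log2 fold change -0.08 ± 0.06 SE, adjusted p = 0.317, edgeR, 95% interval -0.20 to 0.04). LOC107922128, described as PIN component 4-like on D01, had 40.1, 43.6 and 42.3 CPM in CK and 34.6, 34 and 32.2 CPM in Put, with every Put sample below every CK sample (log2 fold change -0.32 ± 0.06 SE, adjusted p = 8.15e-06, edgeR). Both are of the type that in Arabidopsis redirects auxin in bending organs and root tips. The PIN8-type gene LOC107959815, near the minimum count with 66 counts over all samples, did not pass (log2 fold change -0.37, 95% interval -1.25 to 0.51).

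The 13 PIN-LIKES genes did not share a direction, with 3 (23.1%) lower, 2 (15.4%) higher and a median log2 fold change of -0.05. These shares are near the 18.2% lower and 18.4% higher of all tested genes. The most abundant transport member of all was LOC107954780, PIN-LIKES 7-like on D07, at 136, 139 and 128 CPM in CK and 101, 105 and 109.8 CPM in Put. Its CK samples were all higher (log2 fold change -0.35 ± 0.04 SE, adjusted p = 1.33e-11, edgeR). Another PIN-LIKES 7-like gene, LOC107939605 on A02, went the other way at a far lower level, with 1.45, 2.09 and 2.75 CPM in CK and 3.95, 3.86 and 3.69 CPM in Put and no overlap (log2 fold change 0.87 ± 0.21 SE, adjusted p = 8.02e-04, edgeR). At levels set per length, the means were 57.5 FPKM in CK and 45.1 FPKM in Put for the D07 gene and 1.17 and 2.14 FPKM for the A02 gene.

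The PIN-LIKES 2 genes on A07 and D02 fell. LOC107936632 had 28, 25.4 and 28.1 CPM in CK and 17, 19.4 and 18.1 CPM in Put (log2 fold change -0.58 ± 0.08 SE, adjusted p = 6.31e-09, edgeR), and LOC107910026 had 18.7, 19.3 and 21.2 CPM in CK and 12.7, 11.8 and 12.7 CPM in Put (log2 fold change -0.67 ± 0.09 SE, adjusted p = 1.03e-08, edgeR). The groups of both were apart, while the genes of the same name on D07 and A03 had overlapping groups and log2 fold changes of -0.05 and -0.10. PIN-LIKES 6 on A10, LOC107896836, had 21.6, 22.9 and 25.1 CPM in CK and 22.6, 23.3 and 24 CPM in Put and did not pass (log2 fold change 0.00, 95% interval -0.14 to 0.15). LOC107904343 on A05, a PIN-LIKES 3 gene named after its values were seen, had raw counts of 5, 2 and 5 in CK and 38, 29 and 24 in Put. It had the largest log2 fold change of all tested members (log2 fold change 3.04 ± 0.43 SE, adjusted p = 6.27e-08, edgeR), from CK counts near the 3 counts taken as the floor. A PIN-LIKES 3-like gene in its neighborhood, LOC107904183, had overlapping groups and a log2 fold change of 0.07.

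**Figure D2:**
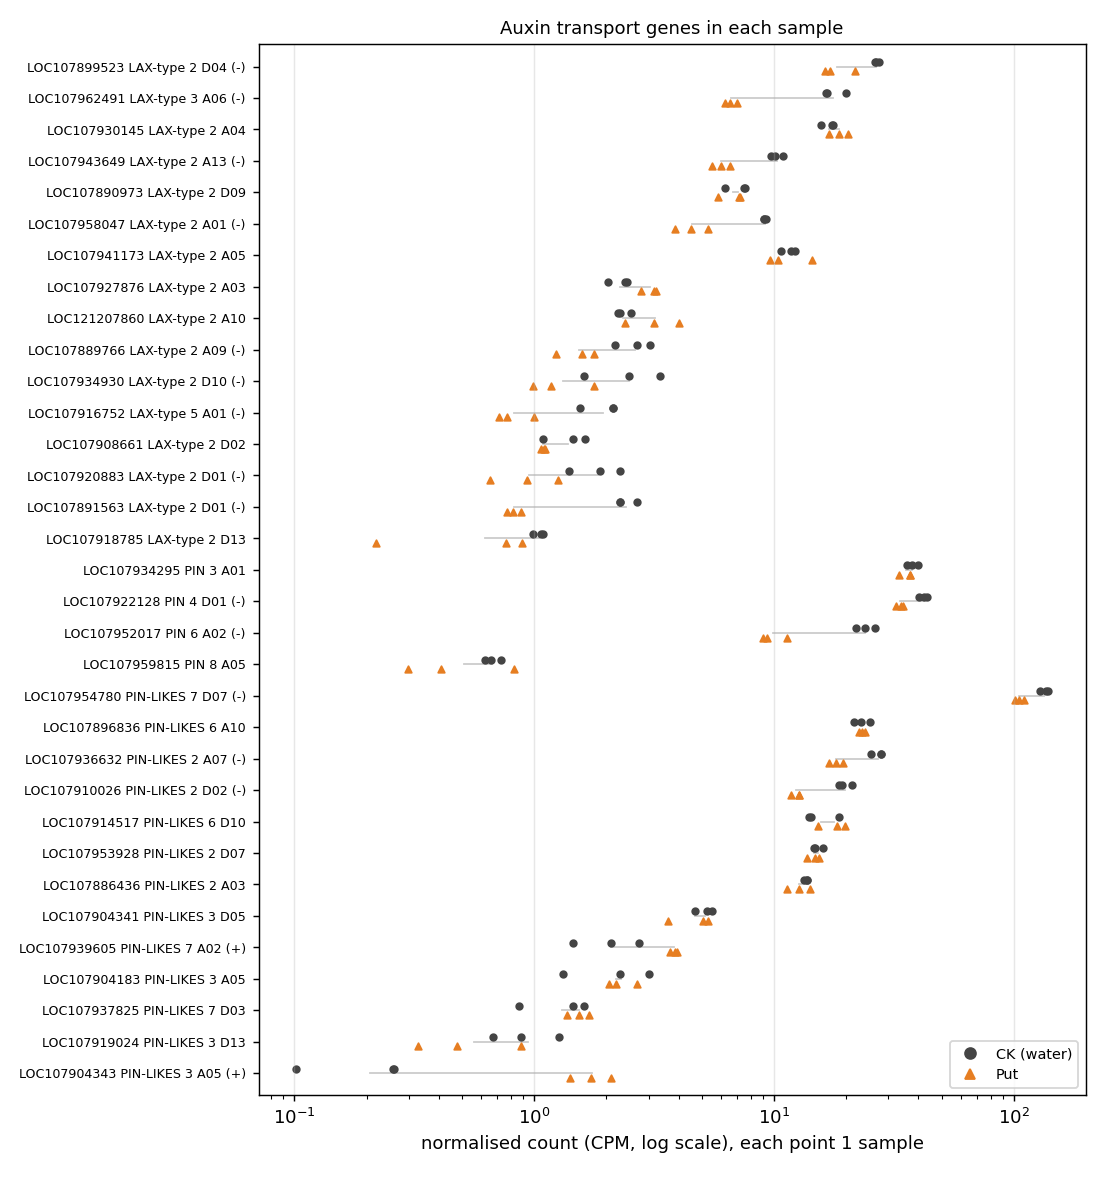
Normalised counts (CPM, log scale) of 33 of the 39 auxin transport genes in each sample, with CK as dark circles, Put as orange triangles and a line between the condition means, ordered within each class by mean FPKM. A minus marks genes lower and a plus genes higher with Put (adjusted p under 0.05, edgeR), and LAX-type stands for auxin transporter-like. The 14 genes marked lower span the abundance range, and 2 PIN-LIKES genes are higher.

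Genes of auxin synthesis and conjugation went both ways. Of 40 tested, 8 (20%) were higher and 13 (32.5%) lower, beside 18.4% and 18.2% of all tested genes, so that only the lower share stood above the background, with a median log2 fold change of 0.03. The YUCCA genes were weakly expressed, since the 8 that met the minimum of 60 counts are a part of 32 with such a description and none exceeded a mean of 3 FPKM. Of these, 1 was higher and 2 lower. LOC107948990, described as YUCCA10 on A08, had 2.75, 2.03 and 2.07 CPM in CK and 0.987, 0.831 and 0.527 CPM in Put. It fell without overlap (log2 fold change -1.53 ± 0.30 SE, adjusted p = 3.91e-05, edgeR). In Arabidopsis, YUCCA10 acts in the developing seed. The YUCCA10 gene LOC107913211 on D08 had 2.9, 3.92 and 3.94 CPM in CK and 2.52, 1.96 and 2.69 CPM in Put (log2 fold change -0.58 ± 0.21 SE, adjusted p = 0.0215, edgeR), but lost its call without CK replicate 2, CK replicate 3 or Put replicate 2, with adjusted p of up to 0.116, so that without any of these samples 1 YUCCA gene was higher and 1 lower. The third YUCCA10 gene of some abundance, LOC107947905 on D08, had 2.95, 3.56 and 4.3 CPM in CK and 4.6, 3.86 and 4.1 CPM in Put with overlapping groups (log2 fold change 0.22, 95% interval -0.13 to 0.57).

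YUCCA8, which in Arabidopsis supports the elongation of seedling organs, was the only YUCCA name with a higher gene. LOC107923303 on chromosome D11 from 14063313 to 14065249 on the plus strand had 0.933, 0.966 and 0.882 CPM in CK and 1.15, 2.38 and 2.4 CPM in Put. Put replicate 1 lay close to the CK samples and the other Put samples well above them (log2 fold change 1.08 ± 0.31 SE, adjusted p = 0.00435, edgeR). The gene of the same name on A11, LOC107923329, had 1.35, 0.661 and 1.66 CPM in CK and 1.43, 0.891 and 0.702 CPM in Put, with the groups interleaved (log2 fold change -0.27, 95% interval -0.96 to 0.43). The difference between the copies was not tested.

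The GH3 family carried more transcript than YUCCA, with a sum of 256 FPKM in CK, against 8.90 FPKM. Of 32 tested, 7 (21.9%) were higher and 11 (34.4%) lower, beside 18.4% and 18.2% of all tested genes, with a median log2 fold change of 0.06. Without Put replicate 3 the count was 6 higher and 7 lower of 33. The counts differed between GH3 names, without a test of that difference. Of the 7 GH3.6 genes, named after an Arabidopsis enzyme that joins auxin to amino acids, 5 were lower and 0 higher, with 4 or 5 lower when a sample was left out. They summed to between 141.5 and 146.4 FPKM in CK and between 93.1 and 94.5 FPKM in Put. LOC107886821 on A03 had 103, 103 and 98 CPM in CK and 53.6, 52.6 and 55.4 CPM in Put, with all Put samples far below CK (log2 fold change -0.91 ± 0.04 SE, adjusted p = 3.72e-25, edgeR). LOC107886917 on D02 had 23.6, 25.4 and 22.7 CPM in CK and 10.4, 11.2 and 11.2 CPM in Put and fell by more (log2 fold change -1.13 ± 0.09 SE, adjusted p = 3.20e-16, edgeR). The abundant gene LOC107951774 on D01 had 98.3, 101 and 102 CPM in CK and 78.9, 82.9 and 80.6 CPM in Put, a smaller change without overlap (log2 fold change -0.31 ± 0.04 SE, adjusted p = 1.33e-09, edgeR), and LOC107918077 on A01 fell by 0.70 on the log2 scale. The fifth, LOC107934422 on D08, lost its call without CK replicate 3, Put replicate 2 or Put replicate 3 (adjusted p of up to 0.135, edgeR). The other two had overlapping groups and log2 fold changes of 0.29 and 0.17.

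The GH3.1 genes pointed more often the other way, with 3 of 7 tested (42.9%) higher and 1 (14.3%) lower, beside 18.4% and 18.2% of all tested genes. The most abundant GH3 gene, LOC107900296 on A11, had 111, 111 and 116 CPM in CK and 117, 123 and 116 CPM in Put. Every Put sample was above every CK sample, but the difference was small and did not pass (log2 fold change 0.07 ± 0.04 SE, adjusted p = 0.101, edgeR). The gene passed without CK replicate 3. It also passed with offsets that follow gene length (log2 fold change 0.10, adjusted p = 0.0171, edgeR). LOC107908866 on D02 rose clearly, with 6.68, 7.27 and 6.22 CPM in CK and 16.9, 19.2 and 18.6 CPM in Put (log2 fold change 1.44 ± 0.10 SE, adjusted p = 4.18e-17, edgeR). LOC107894308 on A13 rose from a low level, with 0.57, 0.661 and 0.57 CPM in CK and 1.48, 1.6 and 1.35 CPM in Put (log2 fold change 1.29 ± 0.35 SE, adjusted p = 0.00257, edgeR). The lower one was LOC107941902 on D11, with 2.44, 1.83 and 2.07 CPM in CK and 0.767, 0.594 and 0.527 CPM in Put, with the Put samples far below CK (log2 fold change -1.73 ± 0.32 SE, adjusted p = 1.26e-05, edgeR). On the same chromosome, the more abundant LOC121223045 rose slightly, by 0.20 ± 0.05 SE on the log2 scale. The log2 fold changes of the GH3.1 genes thus ran from -1.73 to 1.44.

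The 15 GH3.17 genes, named after an Arabidopsis enzyme that makes auxin-glutamate, had 3 (20%) higher and 3 (20%) lower, near the 18.4% and 18.2% of all tested genes. LOC107926146 on A08 had 2.07, 2.09 and 1.5 CPM in CK and 3.56, 2.97 and 4.1 CPM in Put and rose (log2 fold change 0.91 ± 0.22 SE, adjusted p = 6.82e-04, edgeR), next to LOC107926328, which passed narrowly at a log2 fold change of 0.25 and lost its call in 4 of 6 fits without a sample, with adjusted p of up to 0.139 without Put replicate 3. The 3 lower GH3.17 genes, LOC107959428 and LOC107959429 on D04 and LOC121203137 on A03, each lost their call in 4 of these 6 fits, the first with adjusted p of up to 0.186 without CK replicate 2, the second with 0.215 without CK replicate 1 and the last with 0.114 without Put replicate 2 (edgeR). The remaining higher GH3.17 gene, LOC107918405 on D08, rose by 0.77 ± 0.14 SE on the log2 scale, and shares 583 bp on the same strand with LOC107918404, a GH3.17 member with a log2 fold change of -0.51 that did not pass. The 2 tested GH3.10-like genes were opposite, with log2 fold changes of 0.66 on D01 and -0.79 on D13, and the latter did not pass without Put replicate 3 (adjusted p = 0.0593, edgeR). GH3.15, known in Arabidopsis for indole-3-butyric acid as its substrate, had 1 gene, LOC107917009 on A01, which fell (log2 fold change -0.76 ± 0.19 SE, adjusted p = 9.87e-04, edgeR).

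**Figure D3:**
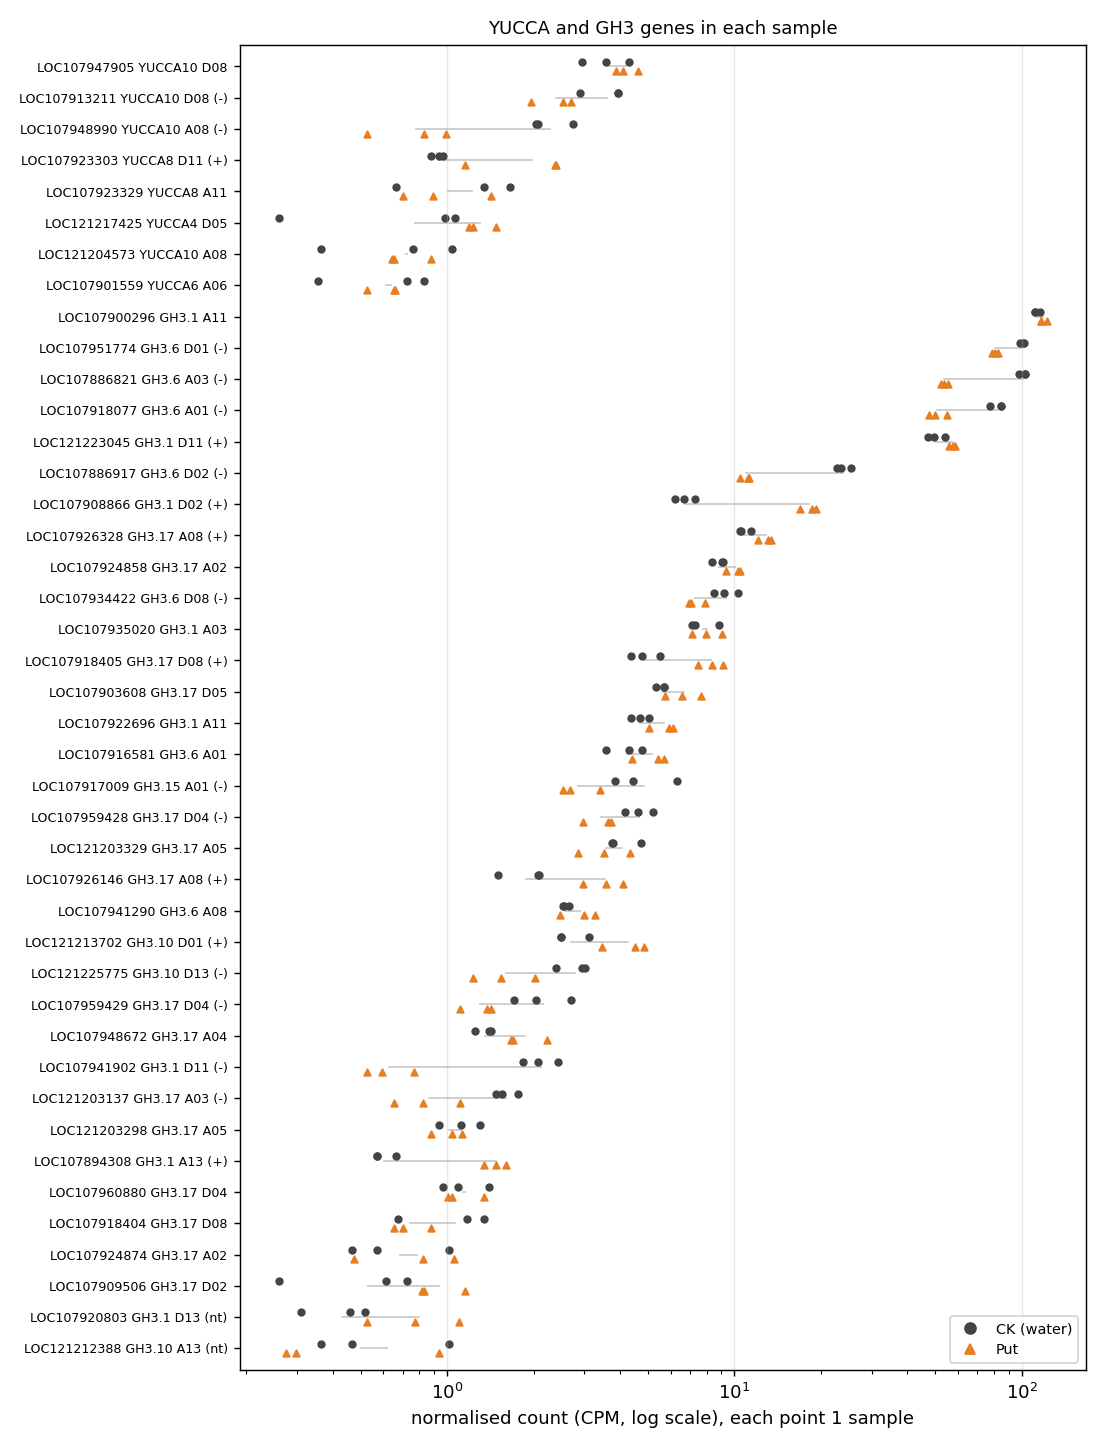
Normalised counts (CPM, log scale) of the 8 YUCCA and 34 GH3 genes in each sample, with CK as dark circles, Put as orange triangles and a line between the condition means, ordered within each class by mean FPKM. A minus marks genes lower and a plus genes higher with Put (adjusted p under 0.05, edgeR), and nt marks the 2 genes that were not tested. The 5 GH3.6 genes marked lower lie apart by condition, and the YUCCA genes stay under 5 CPM.

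SAUR-type genes include those described as SAUR, ARG7, 6B, 15A, X15 or X10A, and 54 of the 55 carry the domain of auxin-responsive SAUR proteins in the annotation. Of 54 tested, 11 were higher and 7 lower with Put, or 20.4% and 13%, which is near the background of 18.4% and 18.2%. The median log2 fold change was 0.09. Of the higher genes, 8 of 11 exceeded a log2 fold change of 1, and of the lower genes 1 of 7 fell below -1. Over all tested genes, 1967 of 9509 higher and 996 of 9426 lower genes reached this size. Of the 8, LOC107908147 and LOC107908156 lay below 1 CPM in every CK sample and met the minimum count mainly through Put. LOC107927861, at a mean of 0.711 FPKM over the 6 samples and a log2 fold change of 1.88, also met it mainly through Put. Summed levels were between 229.4 and 230.02 FPKM in CK and between 259.98 and 265.9 FPKM in Put.

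The most abundant SAUR-type gene changed its rank with the treatment. LOC107902024, described as SAUR71, lies on chromosome D12 from 4261491 to 4262391 on the plus strand and had 9.58, 11.1 and 10.9 CPM in CK and 33.8, 29.6 and 29.3 CPM in Put. All Put samples were far above CK (log2 fold change 1.55 ± 0.08 SE, adjusted p = 3.06e-22, edgeR), which is a 2.93-fold difference. The second in abundance, the SAUR71-like gene LOC121225065 on D13, went down, with 21.8, 21.9 and 20.7 CPM in CK and 12.7, 11 and 12.6 CPM in Put and no overlap (log2 fold change -0.82 ± 0.09 SE, adjusted p = 1.98e-11, edgeR). In CK their means were 11.6 and 22.2 FPKM and in Put 34.1 and 12.6 FPKM, so their order per length was exchanged. The SAUR71 name held 1 higher and 4 lower genes of 9. Over all tested genes, 18.4% were higher and 18.2% lower, and among those between 717.5 and 957 bp, 27.9% and 7.64%.

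Other SAUR-type genes rose by more from lower levels. LOC107927923, SAUR50 on A12, had 4.4, 5.24 and 5.03 CPM in CK and 18.5, 16.2 and 17.1 CPM in Put, more than triple in Put (log2 fold change 1.82 ± 0.11 SE, adjusted p = 1.11e-19, edgeR). LOC107908156, SAUR23-like on D02, had 0.414, 0.509 and 0.467 CPM in CK and 2.03, 1.9 and 2.05 CPM in Put (log2 fold change 2.09 ± 0.34 SE, adjusted p = 1.61e-06, edgeR). LOC107908147, SAUR67 on D02, had 0.259, 0.254 and 0.57 CPM in CK and 1.7, 2.49 and 1.93 CPM in Put, the highest value of the class (log2 fold change 2.48 ± 0.38 SE, adjusted p = 2.85e-07, edgeR). In each of these the groups were apart. On A03, LOC107927861 and LOC121222436, described as SAUR67-like and SAUR62-like and next to each other, rose by 1.88 and 1.44 on the log2 scale, and the SAUR23-like gene LOC107927837 of the same chromosome by 1.39. LOC107921205, SAUR50-like on D01, rose by 1.33. SAUR50 genes were not uniform, since LOC107940722 on D06 had 1.24, 2.44 and 1.45 CPM in CK and 0.658, 1.01 and 0.468 CPM in Put and was lower (log2 fold change -1.26 ± 0.35 SE, adjusted p = 0.00285, edgeR). Its call was lost without CK replicate 2 (log2 fold change -0.92, adjusted p = 0.0783, edgeR). LOC107945607, SAUR36-like on D12, had 7.93, 8.24 and 7.36 CPM in CK and 4.22, 3.8 and 5.09 CPM in Put and fell without overlap (log2 fold change -0.84 ± 0.14 SE, adjusted p = 2.99e-06, edgeR). The other 7 calls of the class had sizes between 0.32 and 0.70, and 4 of them, LOC107903712, LOC107963643, LOC121203027 and LOC121230247, were lost without 1 or more single samples, with adjusted p between 0.064 and 0.167 in the weakest fit (edgeR).

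SAUR-type genes are short, with a median length of 816 bp among those tested, and fold changes in these libraries moved with gene length. Over all tested genes, the median log2 fold change was 0.17 in the shortest of 10 equal groups by length, up to 870 bp, and -0.15 in the longest, from 3499 bp. The 4385 tested genes between 717.5 and 957 bp, the quartiles of the SAUR-type genes, had a median of 0.15, with 27.9% higher and 7.64% lower. Beside these, the SAUR-type median of 0.09 was lower. With offsets that follow gene length, the SAUR-type genes had 10 higher, 10 lower and a median of -0.12, so the sign of the median was reversed. Whether the trend with length is technical was not tested. The influx and PIN genes kept medians of -0.72 and -0.55 with the same offsets.

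**Figure D4:**
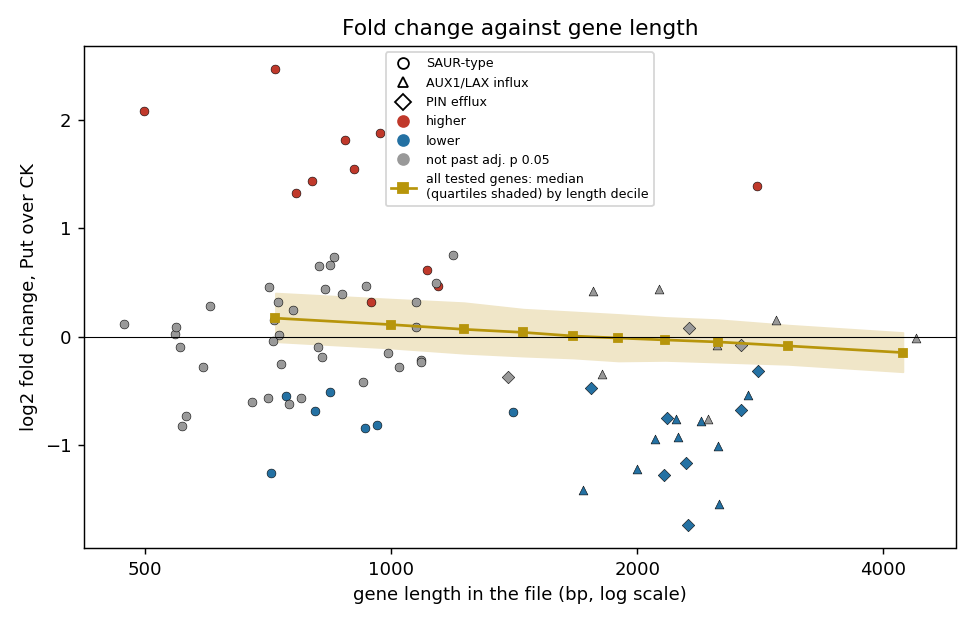
Log2 fold change (Put over CK) of SAUR-type (circles), influx (triangles) and PIN genes (diamonds) against gene length on a log scale, coloured by call. The line with squares gives the median of all tested genes in 10 equal groups by gene length and the shading their quartiles, falling from 0.17 to -0.15. Most influx and PIN genes lie below the shading at their length, and SAUR-type genes lie on both sides.

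The auxin-binding proteins include the most abundant member in Put. LOC107907099, described as ABP20-like, lies on chromosome D05 from 2963048 to 2963923 on the plus strand and had 159.6, 152 and 154 CPM in CK and 519, 509.8 and 498 CPM in Put. No Put sample came near the CK range (log2 fold change 1.71 ± 0.03 SE, adjusted p = 6.12e-48, edgeR), a 3.28-fold difference. Its mean was 176 FPKM in CK and 578 FPKM in Put. ABP19 and ABP20 proteins were named for auxin binding in peach shoots and belong to the germin-like cupins. The annotation lists the cupin domain for 4 of the 5 members, and the domain of the receptor-type auxin-binding protein only for T85, LOC107930335, which had 3.52, 4.17 and 3.68 CPM in CK and 4.55, 3.62 and 3.98 CPM in Put with overlapping groups (log2 fold change 0.10 ± 0.17 SE, adjusted p = 0.71, edgeR). This gene is also annotated with a BSD domain, so its counts may not be those of the auxin-binding part alone. It shares 1592 bp on the same strand with LOC107930326, which had 0 counts in every sample. All 876 bp of LOC107907099 overlap an uncharacterized gene on the other strand, LOC107907098. That gene had raw counts of 476, 450 and 389 in CK and 396, 359 and 373 in Put (log2 fold change -0.06, adjusted p = 0.571, edgeR), against 3081, 2981 and 2979 in CK and 9462, 8586 and 8507 in Put for LOC107907099. Whether counting used strand is not given in the sources used here.

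Neighboring ABP19a-type genes on A05 were opposite. LOC107958834 had 0.259, 0.661 and 0.311 CPM in CK and 2.63, 2.91 and 3.51 CPM in Put (log2 fold change 2.85 ± 0.33 SE, adjusted p = 2.06e-10, edgeR). Its raw counts were 5, 13 and 6 in CK and 48, 49 and 60 in Put, so it met the minimum count mainly through Put. LOC107958787 had 3.89, 2.85 and 2.7 CPM in CK and 1.64, 2.08 and 1.58 CPM in Put (log2 fold change -0.83 ± 0.23 SE, adjusted p = 0.00308, edgeR). Neither had overlapping groups, and per length the first went from 0.421 FPKM in CK to 3.09 FPKM in Put and the second from 2.71 to 1.52 FPKM. The decrease of LOC107958787 did not pass without CK replicate 1, its highest sample (log2 fold change -0.65, adjusted p = 0.0522, edgeR). A further ABP19a gene, LOC107929957 on A07, had 0.829, 0.61 and 0.622 CPM in CK and 1.64, 2.2 and 2.57 CPM in Put and rose (log2 fold change 1.63 ± 0.32 SE, adjusted p = 3.06e-05, edgeR). How reads that match several such like genes were counted is not given in the sources used here.

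The auxin-repressed proteins, dormancy-associated proteins of unknown action that fall after auxin in other plants, were the most abundant class and changed little. Of 4, 3 were lower and 0 higher, all by small steps, beside 18.2% lower and 18.4% higher of all tested genes. LOC107961731 on A06 had 588, 589.7 and 598 CPM in CK and 547, 535 and 517 CPM in Put (log2 fold change -0.15 ± 0.02 SE, adjusted p = 3.99e-08, edgeR), and every Put sample lay below every CK sample. Its counterpart on D06, LOC107901799, had 414, 405 and 439 CPM in CK and 437, 420.5 and 414 CPM in Put, with the groups overlapping (log2 fold change 0.01 ± 0.02 SE, adjusted p = 0.695, edgeR), and with length offsets it was lower by 0.11 (adjusted p = 1.54e-04). LOC107913952 on A05 had 363, 362 and 367 CPM in CK and 345, 344 and 336 CPM in Put (log2 fold change -0.09 ± 0.02 SE, adjusted p = 9.87e-04, edgeR). It shares 1389 bp on the same strand with LOC107913951, a FRIGIDA-ESSENTIAL 1 gene with 282 to 379 raw counts per sample. LOC107905802 on D05 had 252, 258 and 257 CPM in CK and 250.4, 236 and 237 CPM in Put (log2 fold change -0.08 ± 0.03 SE, adjusted p = 0.0104, edgeR), and did not pass without Put replicate 2 or Put replicate 3, with adjusted p of up to 0.0841.

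Of the remaining 22 members, 16 are described as AUX22, 22B, 22D or AUX28, and 15 of these carry the Aux/IAA domain, that of the repressors which auxin causes to be degraded. Among them, 8 (50%) were higher and 3 (18.75%) lower, beside 18.4% and 18.2% of all tested genes. Their median log2 fold change of 0.12 became 0.03 with length offsets. The 22D genes ranged widely. LOC107941656 on chromosome D07 from 55675361 to 55676875 on the minus strand had 2.9, 2.49 and 2.7 CPM in CK and 11.5, 10.3 and 9.19 CPM in Put (log2 fold change 1.94 ± 0.15 SE, adjusted p = 3.31e-16, edgeR), and its counterpart on A07, LOC107955471, had 1.71, 1.53 and 0.674 CPM in CK and 4.33, 4.16 and 4.74 CPM in Put (log2 fold change 1.75 ± 0.23 SE, adjusted p = 1.53e-08, edgeR). Both rose without overlap. The 22D pair on A09 and D09 rose as well, LOC107928438 by 0.74 and LOC107929024 by 0.95 on the log2 scale, with LOC107929024 at 2.18, 2.9 and 2.54 CPM in CK and 4.39, 4.99 and 5.38 CPM in Put. The 22D gene LOC107915183 on D08 rose by 1.52 on the log2 scale from 3, 10 and 12 raw counts in CK. LOC107926752 on D11 rose by 0.40, whereas its counterpart LOC107889557 on A11 and LOC107913897 on D10, with log2 fold changes of 0.11 and 0.10, did not pass.

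The AUX28 genes did not follow. LOC107941658, next to the 22D gene on D07, had 41.8, 38.2 and 43.2 CPM in CK and 36.1, 34.4 and 33.5 CPM in Put and fell (log2 fold change -0.24 ± 0.06 SE, adjusted p = 6.65e-04, edgeR). LOC107922883 on D11 had 2.07, 1.68 and 1.81 CPM in CK and 0.493, 0.831 and 0.936 CPM in Put and fell by more (log2 fold change -1.30 ± 0.32 SE, adjusted p = 8.96e-04, edgeR). Its counterpart LOC107924370 on A11 had 5.08, 4.48 and 6.33 CPM in CK and 3.84, 3.98 and 4.1 CPM in Put (log2 fold change -0.41 ± 0.16 SE, adjusted p = 0.0418, edgeR), and kept its call only without CK replicate 2, with a log2 fold change of -0.26 and an adjusted p of 0.292 without CK replicate 3. The most abundant of these genes, 22B on D13 (LOC107920280), had 50.3, 50.8 and 53.6 CPM in CK and 58.2, 56.9 and 53.5 CPM in Put. It passed although 1 CK sample lay just above the lowest Put sample (log2 fold change 0.12 ± 0.05 SE, adjusted p = 0.0409, edgeR), and lost its call without CK replicate 1, CK replicate 2, Put replicate 1 or Put replicate 2 (adjusted p of up to 0.181, edgeR), and the AUX22 gene LOC107906499 lost its call without the same samples (adjusted p of up to 0.161, edgeR). Leaving out any of these samples gave 6 higher and 2 or 3 lower AUX22-type genes, and without CK replicate 3 or Put replicate 3 the count was 8 higher and 2 lower.

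The other 6 are described as auxin-induced in root cultures protein 12, in Arabidopsis a membrane-anchored cytochrome b protein of the cell surface. Of these, 2 were higher and 0 lower, beside 18.4% and 18.2% of all tested genes. Their median log2 fold change of 0.24 became 0.06 with length offsets. LOC107956133 on D07, the most abundant, had 25.4, 25.5 and 25 CPM in CK and 31.5, 32 and 33.1 CPM in Put and rose without overlap (log2 fold change 0.35 ± 0.06 SE, adjusted p = 1.61e-05, edgeR). LOC107956165 on the same chromosome rose by 0.72 ± 0.16 SE on the log2 scale, while LOC107956240 there had a log2 fold change of 0.00 with a 95% interval of -0.20 to 0.21.

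The auxin pathway beyond these members was read from description lists that did not overlap with them. Of 223 tested genes in these lists, 26 (11.7%) were higher and 108 (48.4%) lower, beside 18.4% and 18.2% of all tested genes, with a median log2 fold change of -0.23, or -0.16 with length offsets. The Aux/IAA repressors described as auxin-responsive IAA proteins were lower in 28 of 50 cases and higher in 1, beside 8 higher and 3 lower of the 16 AUX22-type members; this difference in share was not tested. ABCB transporters of the types 1, 19 and 21, a further class of auxin carriers, were lower in 8 of 9 cases. Both BIG genes were lower, and WALLS ARE THIN 1 genes, named after a vacuolar auxin transporter of Arabidopsis, were lower in 4 of 7. The kinases PINOID and D6PK, which activate PIN carriers, had 5 higher and 14 lower of 36, and NPY proteins, which act with them, 4 higher and 7 lower of 13. Auxin receptors of the TIR1 and AFB type had 1 higher and 7 lower of 18, and auxin response factors 9 higher and 35 lower of 65. Hydrolases that free auxin from its amino acid conjugates had 4 higher and 0 lower of 13, tryptophan aminotransferases, which act before YUCCA, 2 higher and 2 lower of 6, and neither of 2 GNOM genes passed. Of 2 genes described as DAO, a dioxygenase that in Arabidopsis and rice oxidizes auxin, 1 was lower.

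Upland cotton carries an A and a D subgenome, and 83 members lay on A and 84 on D chromosomes. Of 82 tested on each, 15 were higher and 20 lower on A, and 19 higher and 26 lower on D. The shares of all tested genes were 18.4% higher and 18.2% lower. By like description on same-numbered chromosomes, 29 pairs of A and D copies were formed, 27 of them with both copies tested. Both copies were higher in 2 pairs, the 22D pairs on chromosomes 7 and 9. Both were lower in 5 pairs, among them a SAUR71 pair on chromosomes 8, the auxin-repressed pair on 5 and the AUX28 pair on 11. In 0 pairs were the copies called in opposite directions, in 6 pairs 1 copy was higher and the other not called, in 8 pairs 1 was lower and the other not called, and in 6 neither passed. A copy that did not pass is not shown to differ from its partner. The widest gaps were in YUCCA8 on chromosomes 11, at -0.27 for A and 1.08 for D, and in the influx pair on 10, at 0.44 for A and -0.93 for D. Neither difference was tested.

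**Figure D5:**
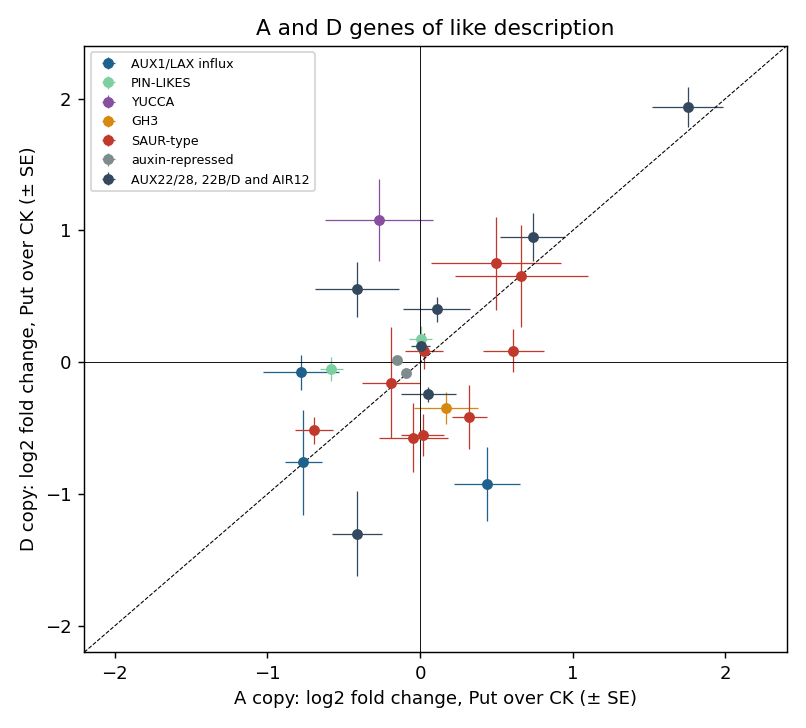
Log2 fold change (Put over CK, ± SE) of the A copy against that of the D copy for 25 of the 27 tested pairs of auxin genes with like description on same-numbered chromosomes, coloured by class. The dashed line marks equal values. The signs were the same in 17 of the pairs shown, a 22D pair lies far out along the line, and YUCCA8 and 1 influx pair lie far from it.

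Members of a class were also grouped by position. Within 100 kb of each other lay 40 members in 17 clusters, 8 of SAUR-type and 5 of GH3 genes. Of the 40, 12 were higher and 5 lower with Put, beside 18.4% and 18.2% of all tested genes. SAUR-type genes made up 21 of the 40, and all tested genes of their length had 27.9% higher and 7.64% lower. Neighbors were not bound to move together. A cluster with both a higher and a lower gene was found 2 times, in the ABP19a genes on A05 and in 22D with AUX28 on D07. Of the 5 SAUR-type genes in the cluster on D02 between 70916492 and 71076658, only the SAUR23-like gene LOC107908156 passed, the log2 fold changes of the others ranging from -0.83 to 0.73.

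Levels set the precision. Mean levels of the 167 members ran from 0.224 to 517 FPKM with a median of 2.45, and 38 members lay below 1 FPKM. At the minimum of 60 counts, the members with the fewest counts were LOC121212388 (GH3.10-like, 62), LOC107959815 (PIN8-type, 66) and LOC107911315 (SAUR50-like, 67), and just outside were LOC121212455 (SAUR71-like, 59) and LOC107905498 (SAUR50-like, 55). LOC121212455 had 14, 20 and 14 raw counts in CK and 4, 2 and 5 in Put and was called lower. The 3 members not tested were LOC121212388, LOC107911315 and LOC107920803 (GH3.1 on D13). LOC107911315 had 5, 1 and 8 counts in CK and 24, 6 and 23 in Put, with overlapping groups. Differences among such genes were not detectable at this depth unless large.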

How the data were processed

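RNA-seq of cultured ovules gave 3 samples per condition, which were assigned to CK or Put by their labels. The reads were mapped with HISAT2 2.0.5, according to the submitters' processing notes, to the Gossypium_hirsutum_v2.1 genome named in the study's methods. The authors deposited raw counts per gene without normalization. The counting program and its use of strand are not given in the sources used here. The authors also deposited FPKM, which are counts scaled to gene length and library total with a normalization between samples, and these served for levels. All 167 members were found in the RefSeq gene table of this assembly.

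Differences were tested on the counts with edgeR 4.0.16 in R 4.3.3, by filterByExpr, TMM normalization and a quasi-likelihood test over the whole table, with Benjamini-Hochberg adjustment. An adjusted p under 0.05 was called. CPM are counts scaled to the TMM-normalised library total, SE is the size of the log2 fold change divided by the root of the F statistic, and intervals are at 95%. A count of 3 was taken as the floor, and intervals cover counting error and the spread between samples only. The fits were tested on simulated data with known changes in a small share of genes and no trend with gene length. That setting is unlike these data, so it does not show how well the fits do here. The members and lists were chosen with earlier results of these data known.

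Per class, the text names the 2 members highest in mean FPKM, and at both ends of the called fold changes up to 3 members that reach a mean of 1 CPM and whose conditions are apart. Some efflux carriers are counted in their class but not reported singly here. Any other gene was named as a neighbor, as an A or D counterpart, to account for calls lost without a sample, or after its values were seen. A planned search of promoter motifs and a pairing of copies by protein sequence were not run, as sequences were not used here, and pairing by like description was chosen after the data were seen. The alternatives tried were DESeq2 1.42.0 as the test, the size factors of DESeq2 within edgeR, no TMM, no filter or a mean of at least 1 CPM, limma 3.58.1 on FPKM with a pseudocount of 1 or 0.1 on the log2 scale and a mean of at least 0.5 FPKM, a replicate block, offsets that follow gene length, a minimum log2 fold change of 1 and leaving out each sample. Figures were drawn with matplotlib 3.10.9 in Python 3.11.15.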

Additional observations from a re-analysis of the deposited data

How the results depend on the processing

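No called member changed sign under any alternative fit in which it was fitted. In these fits between 64 and 80 of the 80 calls held, though 77 of them were fitted under the 1 CPM minimum and 78 with limma and a filter. A minimum log2 fold change of 1 kept 18 higher and 12 lower calls. For the 49 members named by the rule on abundance and called fold change, single values were compared over the alternative fits. Of these values, 741 kept their direction and side of the threshold, 31 fell short of it, 2 came past it and 8 turned sign. Genes named for other reasons are not in this tally. Those 8 belong to genes that did not pass. LOC107896836 stood at -0.0205 with library size without TMM and between -0.0445 and 0.0687 on the log2 scale without a sample. LOC107901799 stood at -0.0102 with library size, at -0.112 with length offsets and between -0.00839 and 0.0521 without a sample. The cause of these changes was not tested.

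With DESeq2's test the members had 31 higher and 39 lower, and genes of synthesis and conjugation 8 lower, also 8 with limma on log2(FPKM + 1) without a filter. With limma, genes of synthesis and conjugation had 5 higher in each version and transport genes 1 higher with a filter, as with a mean of at least 1 CPM, where fewer genes were tested. At the minimum log2 fold change, higher and lower genes were 1 and 7 for transport, 3 and 3 for synthesis and conjugation, 6 and 1 for the auxin-binding, auxin-repressed and remaining genes, and 1 lower for SAUR-type genes. All tested genes then had 1967 higher and 996 lower. Library size without TMM gave 8733 higher and 10497 lower genes in all, against 9509 and 9426, and 32 higher and 46 lower members. Without a sample, 31 to 35 members were higher and 38 to 41 lower.

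Same-numbered samples did not deviate together (correlations of -0.005, -0.009 and -0.013), and no source used here states a pairing. Samples of unlike number had correlations of up to 0.009. Deviations from means of 3 samples also hold counting error, so this comparison cannot exclude a pairing. With a replicate block, 33 members were higher and 45 lower. Genes with few counts limit what could be detected, since 38 members had means below 1 FPKM.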
